A study of Mus musculus with 6 samples.

Results

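The genes described here are 36 genes of glucose breakdown: the glucose transporters, the enzymes of glycolysis and of the pentose phosphate pathway, and the genes that make and export lactate. They were taken by symbol from the 22939 genes of the count table, and all 36 were present and passed the filter on low counts that left 13463 genes for testing. The cells were mouse regulatory T (Treg) cells, the CD4+ T cells that carry the transcription factor Foxp3 and restrain immune responses. Naive CD4+ T cells of Foxp3-GFP knock-in mice, which report Foxp3 by green fluorescence and are on a C57BL/6J background, were activated in culture by plate-bound antibodies to CD3 and CD28 in the presence of TGF-β1 and of antibodies that block IFN-γ and IL4. The 3 ctrl-Treg libraries came from such cultures without drug. The 3 Sora-Treg libraries came from cultures that also held sorafenib (Sora), an inhibitor of several kinases given for liver cancer. GFP+ cells were sorted from both before RNA-seq, so both groups share the reporter allele, the stimulation and the gate. The labels give no Sora concentration, culture time, animal or batch for these libraries, and nothing says whether the 3 libraries of a group were separate cultures, so the p-values measure only the spread between these samples.

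Glycolysis takes up glucose, traps it as a phosphate ester through hexokinase, splits the sugar and ends in pyruvate, with phosphofructokinase as its main point of control. Activated T cells send much of the pyruvate to lactate through lactate dehydrogenase, which restores the NAD+ that the Gapdh step needs, and export the lactate with protons through monocarboxylate transporters. The pentose phosphate pathway branches off after hexokinase, and its oxidative arm makes NADPH while its nonoxidative arm exchanges sugars between ribose phosphate and glycolysis.

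Between 30727686 and 37717324 counts were recorded per library. Values per gene are given as CPM, counts divided by a library size that was scaled by TMM, a method that sets the typical gene at no change, and levels are compared between genes only per length, as FPKM, which divides by a length for each gene. Of 13463 genes, 3994 were higher and 4028 lower in Sora-Treg cells at an adjusted p under 0.05 by edgeR's quasi-likelihood test, and the median log2 fold change over all of them was -0.0035. Scaling by library totals alone lowered every fold change by about 0.12 on the log2 scale and turned the split to 2862 higher against 5614 lower genes. The sorted identity was checked with 7 detected markers of Treg and CD4+ T cells, whose summed level was 3749 to 3794 CPM in ctrl-Treg and 6635 to 6764 CPM in Sora-Treg libraries. Of these, Foxp3 itself differed little, with a log2 fold change of 0.07 ± 0.03 (SE, adjusted p = 0.0405) and overlapping groups. Il2ra, the largest part of the sum, rose from 1934 to 3795 CPM on average, and Ctla4 from 383 to 1108 CPM. Cd3e and Cd3g rose as well, whereas Cd4 (679 and 709 CPM) and Ikzf2 (147 and 149 CPM) differed little. Summed markers of B cells were 9.71 to 10.7 CPM against 6.09 to 7.68 CPM, and those of CD8+ T cells 13.2 to 15.1 CPM against 12.6 to 13.8 CPM. All 10 myeloid markers had counts, and 9 passed the filter. Their sum was 96.5, 96.7 and 26.5 CPM in the ctrl-Treg libraries against 31.9, 52.6 and 30.4 CPM in the Sora-Treg libraries. The myeloid markers did not move together. Lyz2, Csf1r, Itgam, Adgre1, Fcgr1 and Cd14 were called lower, with overlapping groups. Ccr2 was called higher (1.62 ± 0.421 against 9.26 ± 0.151 CPM, SD), and Cd68 and Fcgr3 did not pass the test. Markers of NK and erythroid cells did not exceed 0.157 CPM in sum. The part of such cells in the results was not tested. Fewer cells of a type and less RNA per cell cannot be told apart in bulk RNA.

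Most of the genes stood higher in Sora-Treg cells. Of the 36, 25 rose and 6 fell at an adjusted p under 0.05, and 5 did not pass the test. Over all tested genes 29.7% were called higher and 29.9% lower, so 25 of 36 is a larger share than the background and 6 of 36 a smaller one. The 36 genes were chosen with earlier results of these data known, so this comparison is a description and no test. The log2 fold changes ran from -1.01 for Ldhb to 2.05 for Slc2a3, with a median of 0.48. With the 2-fold limit added, Slc2a3 and Aldoc were called higher and Ldhb lower. These shares, 2 of 36 and 1 of 36, were no larger than the 6.3% and 4.97% of all genes. In 25 genes all 3 Sora-Treg libraries lay above all 3 ctrl-Treg libraries, a separation that 31.8% of all genes showed. In 6 genes they all lay below, as in 32% of all genes. Bsg, at 0.998 ± 0.02 on the log2 scale, stopped just short of the 2-fold limit. With all libraries kept, Bsg passed it under another scaling (RLE, 1.002), another filter on low counts (1.002) and DESeq2. It also passed without ctrl-Treg replicate 1 or 3 or Sora-Treg replicate 2, with 1.01 at most. With libraries scaled by their totals, 22 of the genes were called higher and 8 lower, and the median was 0.37, which is 0.49 above that of all genes, as in the main test.

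**Figure D1:**
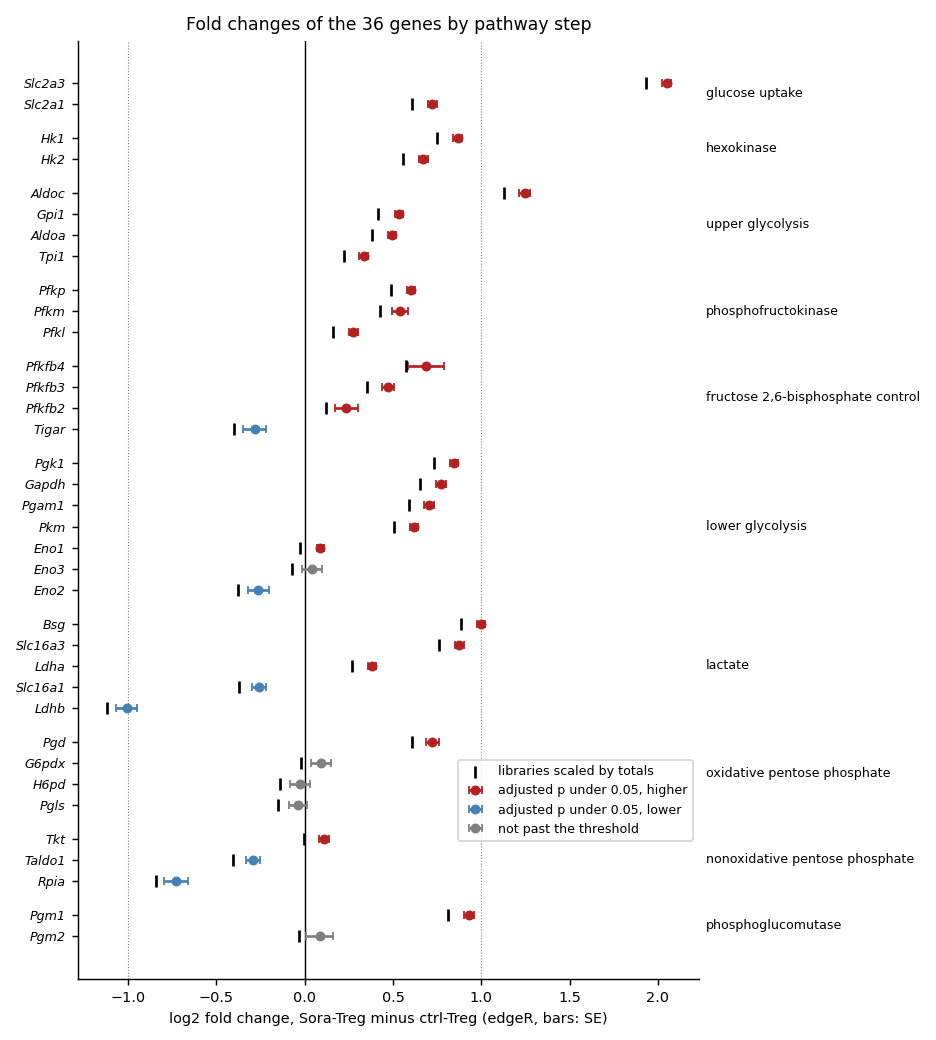
Log2 fold change (Sora-Treg minus ctrl-Treg, edgeR) of the 36 genes, grouped by pathway step, with bars of 1 SE; red points rose, blue points fell and grey points did not pass the adjusted p of 0.05, dotted lines mark 2-fold, and black ticks give the value with libraries scaled by totals. The genes of glucose uptake and most of glycolysis lie to the right of 0, Ldhb and Rpia lie farthest to the left, and the ticks of Eno1, Eno3, G6pdx, Tkt and Pgm2 fall on the other side of 0.

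Counted by pathway, the share of genes that rose was larger for glycolysis and lactate than for the pentose phosphate pathway. Of 27 glycolysis and lactate genes, 22 rose (81.5%, against 29.7% of all tested genes) and 4 fell (14.8%, against 29.9%). Their median log2 fold change was 0.54. Of 7 pentose phosphate genes, 2 rose (28.6%), 2 fell (28.6%) and 3 did not pass the test, with a median of -0.03. These shares lay near those of all tested genes, 29.7% higher and 29.9% lower. Of all counts, 2.37%, 2.38% and 2.36% fell on the 36 genes in the controls, whereas 3.38%, 3.26% and 3.34% did so with Sora. The groups did not overlap, and the mean rose from 2.37% ± 0.0111 to 3.33% ± 0.0613 (SD, n = 3). Such a share uses no TMM factor, and it amounts to scaling each library by its total. The exact two-sided permutation test gave p = 0.1, which is the smallest p that 3 libraries against 3 can reach. The pentose phosphate genes alone took 0.0686% ± 0.000568 and 0.0681% ± 0.00149 of the counts (exact permutation p = 0.8). Of the summed FPKM they took 0.0647% ± 0.000347 and 0.0629% ± 0.00131, without overlap (exact permutation p = 0.1).

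**Figure D2:**
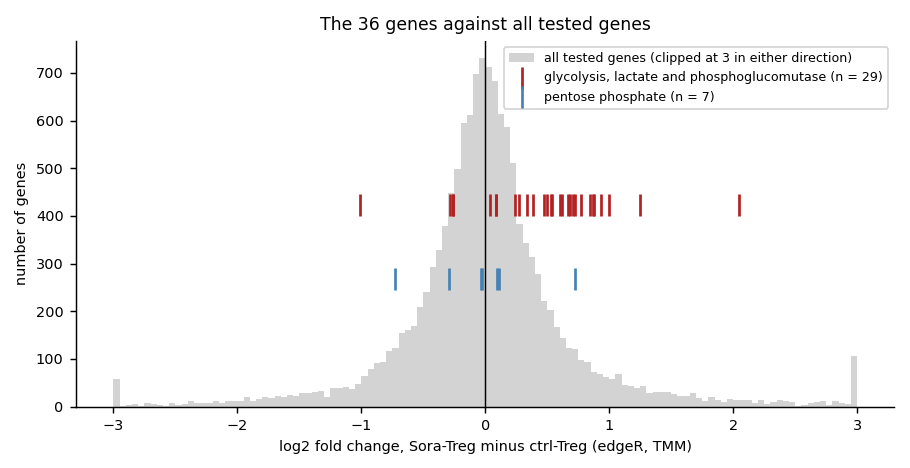
Histogram of the log2 fold changes of all 13463 tested genes (grey; values beyond 3 are gathered in the outer bars), with ticks for the 29 genes of glycolysis, lactate and phosphoglucomutase (red) and the 7 pentose phosphate genes (blue); the black line is the median of all tested genes. Most red ticks lie to the right of the line, and the blue ticks lie on both sides of it.

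Both glucose transporters among the 36 genes rose. Of their tested relatives outside the 36, Slc2a8 was called higher, Slc2a6 was called lower and Slc2a4 did not pass the test. Slc2a3 encodes the high-affinity transporter GLUT3 and was measured at 589, 585 and 602 CPM in ctrl-Treg cells against 2414, 2466 and 2472 CPM in Sora-Treg cells. That is the largest fold change among the 36 genes, 2.05 ± 0.02 on the log2 scale (SE, adjusted p = 1.04e-25), at the 98th percentile of all tested genes. Slc2a1 encodes GLUT1, the main transporter of activated T cells, and stood at 435, 462 and 457 CPM against 753, 730 and 752 CPM. Its log2 fold change was 0.72 ± 0.03 (adjusted p = 3.33e-16), and the groups did not overlap. In ctrl-Treg cells Slc2a1 stood at 175 ± 5.05 and Slc2a3 at 105 ± 1.66 FPKM (SD, n = 3), and in Sora-Treg cells Slc2a1 stood at 267 ± 5.03 and Slc2a3 at 401 ± 4.64 FPKM. The order of the pair in ctrl-Treg cells rests on the lengths behind the FPKM, 5864 bases for Slc2a3 and 2682 for Slc2a1. The share of Slc2a3 in the summed FPKM of the pair was 38.2%, 36.7% and 37.6% in ctrl-Treg and 59.5%, 60.7% and 60.1% in Sora-Treg libraries. Divided by the longest coding transcripts instead, of 3959 and 3260 bases, the Slc2a3 share was 52.7%, 51.1% and 52% against 72.5%, 73.6% and 73%, and of their counts alone it was 57.5%, 55.9% and 56.8% against 76.2%, 77.2% and 76.7%. The share of Slc2a3 was thus higher with Sora on every scale, whereas which of the pair was higher in ctrl-Treg cells depended on the length.

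Both hexokinases, which phosphorylate glucose on entry, rose. Hk1, the form found in most cells, was at 390, 392 and 377 CPM against 711, 696 and 705 CPM, a log2 fold change of 0.87 ± 0.03 (adjusted p = 4.09e-18). Hk2, the inducible form that also binds mitochondria, was at 440, 445 and 441 CPM against 696, 699 and 716 CPM, a log2 fold change of 0.67 ± 0.02 (adjusted p = 2.18e-16). No library of one group overlapped the other in either gene. The Hk1 share of their FPKM was 49.3% ± 0.474 without Sora and 52.7% ± 0.454 with it. Once phosphorylated, glucose 6-phosphate is turned to fructose 6-phosphate by Gpi1, which rose from 1284 ± 10.5 to 1857 ± 37.5 CPM (log2 fold change 0.53, adjusted p = 2.82e-15).

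The 3 phosphofructokinase genes, which encode subunits of the rate-controlling enzyme, rose together. Pfkp, the platelet-type subunit, was the most abundant per length, at 175 ± 1.93 and 245 ± 2.12 FPKM, and its log2 fold change was 0.60 ± 0.02 (adjusted p = 3.45e-16). Pfkl, the liver-type subunit, changed less, at 435, 444 and 426 CPM against 536, 518 and 525 CPM (log2 fold change 0.27 ± 0.03, adjusted p = 5.98e-09). Pfkm, the muscle-type subunit, rose by 0.54 ± 0.05 (adjusted p = 1.12e-09) from 14.2 ± 0.493 FPKM. The Pfkp share of the family was 58.3%, 57.6% and 58.8% in ctrl-Treg and 62.8%, 63.4% and 63.2% in Sora-Treg libraries, and that of Pfkl 36.9%, 37.8% and 36.5% against 32.1%, 31.8% and 31.9%. The Pfkm share, 4.73% ± 0.131 and 4.91% ± 0.194, overlapped between the groups.

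Phosphofructokinase is activated by a signalling form of fructose bisphosphate that the PFKFB enzymes make. Tigar, a phosphatase, removes it and so favours the pentose phosphate pathway. The 3 PFKFB genes among the 36 rose and Tigar fell. Pfkfb1, a relative outside the 36, was called lower, from 2.24 ± 0.321 to 1.27 ± 0.532 CPM (SD, adjusted p = 0.0176). Pfkfb3, the form with the strongest kinase activity, held 85.7% ± 0.512 and 86.0% ± 0.658 of the FPKM of the 3 genes among the 36. It rose from 139, 146 and 141 CPM to 191, 203 and 195 CPM (log2 fold change 0.47 ± 0.03, adjusted p = 3.36e-11). Pfkfb4 was the lowest of the 36 genes per length in ctrl-Treg cells, at 1.53 ± 0.109 FPKM. It rose from 6.65, 7.72 and 7.33 CPM to 12.1, 10.7 and 12.1 CPM (log2 fold change 0.69 ± 0.10, adjusted p = 4.53e-06). Pfkfb2 rose by 0.24 ± 0.07 on the log2 scale (adjusted p = 0.00377), a call that was lost with libraries scaled by totals (0.12, adjusted p = 0.116) and in limma (0.08 to 0.12). It was also lost without ctrl-Treg replicates 1 and 2, whose summed myeloid markers were highest (0.18, adjusted p = 0.148). Tigar was at 25.7, 24.6 and 26.5 CPM against 21.7, 20.1 and 21.3 CPM, with no overlap and a log2 fold change of -0.28 ± 0.07 (adjusted p = 0.000813).

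Aldolase splits the doubly phosphorylated sugar, and triose phosphate isomerase (Tpi1) keeps its products in balance. Aldoc, the aldolase best known from brain, had the second largest rise among the 36 genes, from 102, 106 and 102 CPM to 245, 238 and 253 CPM, a log2 fold change of 1.25 ± 0.03 (adjusted p = 6.14e-19). Aldoa, the form of muscle and most other cells, rose from 2813, 2885 and 2825 CPM to 4103, 3877 and 4042 CPM (log2 fold change 0.50 ± 0.02, adjusted p = 1.02e-14). In both genes the groups stood apart. Aldoa was far the more abundant, at 1221 ± 13.4 and 1590 ± 49 FPKM, and Aldoc took 2.98% ± 0.0204 of the FPKM of the pair without Sora and 4.90% ± 0.106 with it. Tpi1 rose from 1429 to 1803 CPM on average (log2 fold change 0.33 ± 0.03, adjusted p = 9.39e-11).

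Of the 7 genes of the lower, energy-yielding part of glycolysis, 5 rose, 1 fell and 1 did not pass the test. These are shares of 71.4% higher and 14.3% lower, against 29.7% and 29.9% of all tested genes. Pgk1, which makes the first ATP of the pathway, was measured at 2312, 2311 and 2315 CPM without Sora and at 4187, 4086 and 4193 CPM with it. Its log2 fold change was 0.85 ± 0.02 (adjusted p = 8.36e-20), and its level in ctrl-Treg cells was 1318 ± 4.38 FPKM. Gapdh, which oxidizes the triose phosphate and is often taken as a reference gene, rose from 257, 254 and 256 CPM to 449, 417 and 443 CPM (log2 fold change 0.77 ± 0.03, adjusted p = 4.07e-16). Pgam1, the mutase that moves the phosphate group, rose by 0.70 ± 0.03 (adjusted p = 2.44e-16). Pkm, the pyruvate kinase that makes the last ATP, rose from 4348, 4442 and 4354 CPM to 6878, 6585 and 6717 CPM (log2 fold change 0.62 ± 0.02, adjusted p = 2.56e-17). None of these 4 genes had overlapping groups.

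Within lower glycolysis the enolases, which make phosphoenolpyruvate, moved least. Eno1, the form of most cells, held 98.3% of the FPKM of the family without Sora and 98.5% with it, and was at 2427, 2435 and 2458 CPM against 2635, 2543 and 2606 CPM. Its log2 fold change of 0.09 ± 0.02 passed the test (adjusted p = 0.00102), but with libraries scaled by totals the value was -0.03, so its direction rests on the scaling. Eno2, the neuronal form, fell from 46.8, 52.4 and 55.8 CPM to 45.1, 40.4 and 43.6 CPM (log2 fold change -0.26 ± 0.06, adjusted p = 0.000542). Eno3, the muscle form, was at 33.6 and 34.5 CPM on average and did not pass the test (log2 fold change 0.04 ± 0.06, adjusted p = 0.568).

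Counts of several of these enzymes carry an uncertainty, because parts of their transcripts recur in other genes. At 97% identity over at least 100 bases, 88% of the Gapdh transcript matched other genes (49, of which 46 are pseudogenes). The shares were 85.6% for Eno1, 76.8% for Ldhb, 68.8% for Pgk1, 65.5% for Pkm, 43.1% for Pgam1, 36.3% for Gpi1 and 19.3% for Tpi1, and the other 28 genes had no such match. How reads that fit several places were counted is not given in the sources used here. Gapdh stood at 153 ± 1.1 FPKM in ctrl-Treg cells, well below the neighbouring enzymes Tpi1, at 1012 ± 10 FPKM, and Pgk1. Exons shared with another gene model on the same strand made up 20.6% of the exon bases of Pgls, 17.4% of Pfkfb2, 15.3% of Pkm and 10.2% of Pfkm. On the opposite strand the largest shares were 13.6% for G6pdx and Pgm1 and 11.5% for Gpi1, and whether the counting used strand is not given in the sources used here either.

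The order of levels among the genes depends on the length used. The length behind the FPKM was over 1.5 times the longest coding transcript in 7 of the 36 genes: Eno3 (5457 against 1564 bases), Pkm (7687 against 2432), Ldha (5342 against 1815), Pfkfb2, Tigar, H6pd and Aldoa. By FPKM the highest levels in ctrl-Treg cells were those of Pgk1, Eno1, Aldoa and Tpi1. Divided by the transcript instead, Aldoa (1908), Pkm (1874) and Pgk1 (1318) stood highest. Pfkfb4 was the lowest on both.

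**Figure D3:**
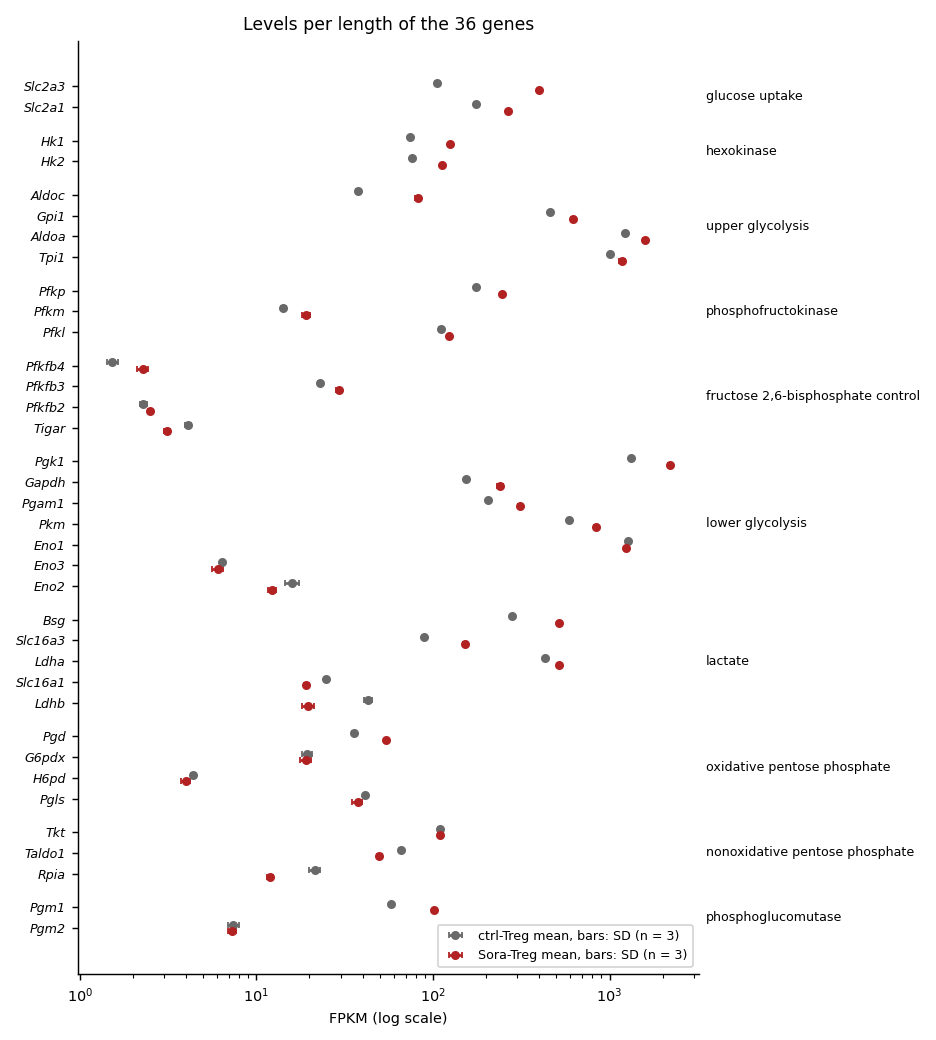
Level per length (FPKM, log axis) of the 36 genes by pathway step, as mean with bars of 1 SD over 3 libraries, for ctrl-Treg (grey) and Sora-Treg (red) cells; FPKM are scaled by library totals. Pgk1, Eno1, Aldoa and Tpi1 lie highest on this scale, between 1012 and 2187 FPKM in either group, whereas Pfkfb2, Pfkfb4 and Tigar lie lowest, between 1.53 and 4.11 FPKM together with H6pd, which lies at 3.98 and 4.40 FPKM.

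The lactate genes split within their families. Ldha and Ldhb encode the subunits of lactate dehydrogenase, with Ldha favouring the making of lactate and Ldhb its use. Ldha rose from 2213, 2250 and 2173 CPM to 2925, 2856 and 2871 CPM, a log2 fold change of 0.38 ± 0.02 (adjusted p = 4.76e-13). Ldhb fell from 52.9, 57.3 and 51.2 CPM to 29.3, 25.5 and 25.7 CPM, a log2 fold change of -1.01 ± 0.06 (adjusted p = 1.21e-12). The groups did not overlap in either gene. Ldhb passed the 2-fold limit narrowly: without ctrl-Treg replicate 2 or without Sora-Treg replicate 2 or 3 its value lay between -0.96 and -0.97, with an adjusted p of at most 4.97e-10. The Ldhb share of the FPKM of the pair was 9.05% without Sora and 3.67% with it, and 3.27% and 1.28% when divided by the longest coding transcripts. Slc16a3, which encodes the lactate exporter MCT4, rose from 313, 316 and 315 CPM to 585, 571 and 576 CPM (log2 fold change 0.88 ± 0.03, adjusted p = 2.84e-18). Slc16a1, which encodes MCT1, a carrier that can take lactate in or out, fell from 108, 104 and 107 CPM to 85.3, 91.4 and 89.3 CPM (log2 fold change -0.26 ± 0.04, adjusted p = 3.41e-06). Slc16a3 held 78.2% of the FPKM of the pair without Sora and 88.7% with it. Bsg encodes basigin, the chaperone that brings both transporters to the cell surface, and rose from 477, 468 and 481 CPM to 959, 935 and 952 CPM (adjusted p = 1.42e-19).

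The promoters of these 2 pairs are shown because their members moved in opposite directions. For Ldha, RefSeq has 2 windows and the upstream one is shown. Each sequence is the 250 bases before the start of the gene in RefSeq (build GRCm38.p6), written along the strand of the gene from 5′ to 3′. Capitals mark the core of the site read by hypoxia-inducible factors, ACGTG or GCGTG on either strand. The E-box CACGTG, a site read by Myc among others, holds that core on both strands and is therefore counted as 2 cores.
Ldha, chr7:46845554-46845803, plus strand: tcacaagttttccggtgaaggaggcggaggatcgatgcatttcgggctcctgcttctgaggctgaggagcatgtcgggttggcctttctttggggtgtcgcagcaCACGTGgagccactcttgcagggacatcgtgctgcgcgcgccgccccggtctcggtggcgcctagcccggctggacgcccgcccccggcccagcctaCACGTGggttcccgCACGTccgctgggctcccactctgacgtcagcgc
Ldhb, chr6:142507958-142508207, minus strand: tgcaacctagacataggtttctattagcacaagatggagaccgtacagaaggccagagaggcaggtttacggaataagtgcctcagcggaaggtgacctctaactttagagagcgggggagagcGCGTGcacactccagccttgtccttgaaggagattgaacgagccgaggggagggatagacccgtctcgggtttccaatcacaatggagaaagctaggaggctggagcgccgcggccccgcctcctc
Slc16a3, chr11:120948817-120949066, plus strand: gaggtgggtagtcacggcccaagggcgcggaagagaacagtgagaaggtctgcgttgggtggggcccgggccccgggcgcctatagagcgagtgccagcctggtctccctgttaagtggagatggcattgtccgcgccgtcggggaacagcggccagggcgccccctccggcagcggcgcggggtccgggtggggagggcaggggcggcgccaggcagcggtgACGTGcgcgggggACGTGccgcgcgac
Slc16a1, chr3:104638414-104638663, plus strand: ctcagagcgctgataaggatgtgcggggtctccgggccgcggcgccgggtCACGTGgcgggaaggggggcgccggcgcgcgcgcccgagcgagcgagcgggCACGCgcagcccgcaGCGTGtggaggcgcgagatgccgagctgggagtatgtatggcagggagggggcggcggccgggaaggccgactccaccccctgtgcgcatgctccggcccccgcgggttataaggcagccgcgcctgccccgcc

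The Ldha window shown held 5 cores, with 2 E-boxes among them. The second Ldha window, at chr7:46846832-46847081, held 1 core and no E-box, and the Ldhb window held 1 core and no E-box as well. The Slc16a3 window held 2 cores near the start of the gene, and the Slc16a1 window 4 cores, with 1 E-box among them. RefSeq windows were found for 34 of the 36 genes; Slc2a3 and Bsg were not in the table. At least 1 core was present in any window of 29 of the 34 (85.3%), against 60.5% of 10701 tested genes and 41.5% of all 27025 genes with windows of this length. At least 2 cores were present in 44.1% of the 34 genes, against 31% and 18.7%. An E-box was present in 5 of the 34 (14.7%), against 9.57% and 6.86%. Genes differ in their number of windows, and a gene with more windows has more places for a core. Counted by window, 79.6% of the 49 windows of the 34 genes held a core, against 38.6% of all 32851 windows, tested genes or not. The letters are a description of the windows and were not tested as sites.

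**Figure D4:**
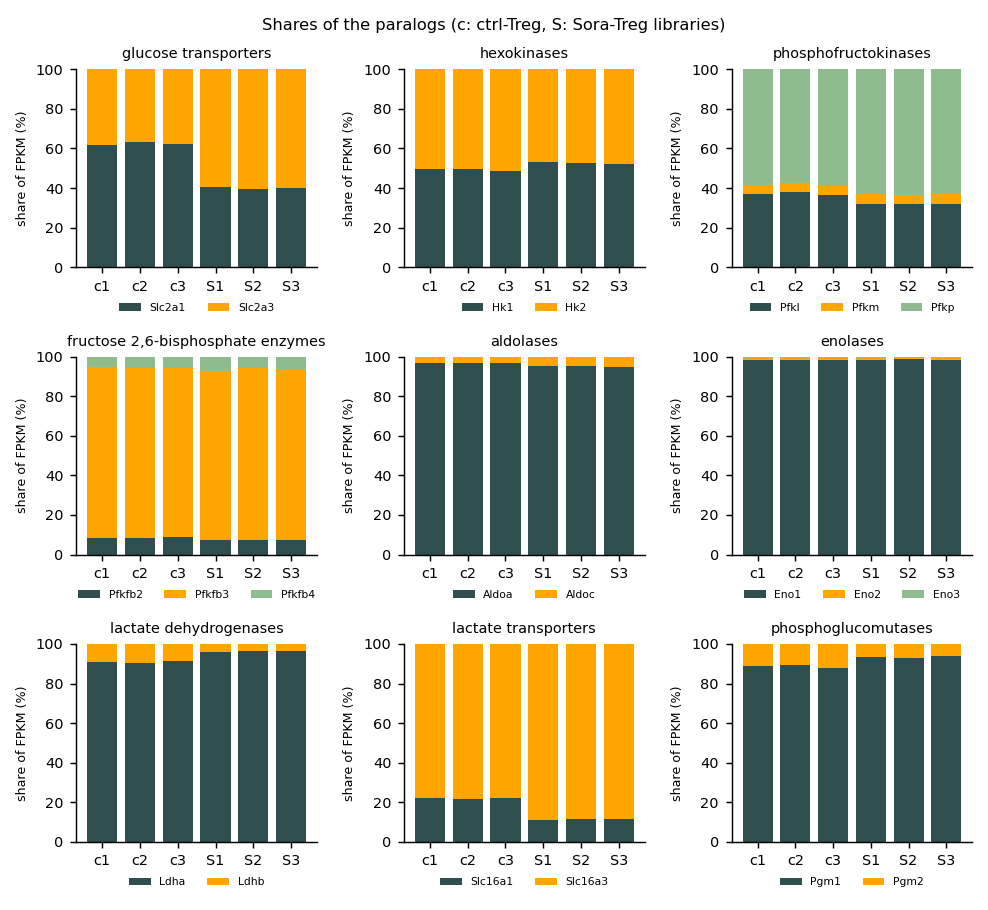
Share of each paralog in the summed FPKM of its family, per library (c1 to c3: ctrl-Treg replicates; S1 to S3: Sora-Treg replicates), for 9 families. The glucose transporter bars change most, with Slc2a3 at 37.5% on average in ctrl-Treg and 60.1% in Sora-Treg libraries, and the enolase bars change least.

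In 15 paralog shares of the 9 families tested with the exact two-sided permutation test over the 6 libraries, 12 separated the groups without overlap and gave p = 0.1, the smallest p possible, or 0.125 after Benjamini-Hochberg adjustment over the 15. No share can pass a threshold of 0.05 in this design. The shares of Pfkm, Pfkfb3 and Eno3 overlapped between the groups (p = 0.2, 0.6 and 0.4 by the exact permutation test).

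Of 4 genes of the oxidative arm of the pentose phosphate pathway, 1 rose and 3 did not pass the test. The 25% that rose lay near the 29.7% called higher over all tested genes, and 0% fell, against 29.9%. Pgd, the enzyme of the second NADPH-making step, rose from 78.1, 81.2 and 76.8 CPM to 129, 128 and 133 CPM (log2 fold change 0.72 ± 0.04, adjusted p = 8.02e-14). G6pdx, the rate-limiting enzyme of the NADPH-making first step, was at 45.1, 40.2 and 45.6 CPM against 47.4, 42.8 and 49.2 CPM. Its groups overlapped, and its log2 fold change of 0.09 ± 0.06 did not pass the test (adjusted p = 0.18). Without Sora-Treg replicate 2 it was 0.15 with an adjusted p of 0.0258, and with libraries scaled by totals it was -0.02. Pgls, the lactonase between those steps, was at 46.6 and 45.4 CPM on average (adjusted p = 0.549), and H6pd, the form of the endoplasmic reticulum, at 33.7 and 33.0 CPM (adjusted p = 0.728).

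In the nonoxidative arm Rpia and Taldo1 fell and Tkt rose slightly. Rpia, which makes ribose 5-phosphate for nucleotides, was at 33.2, 38.5 and 37.5 CPM against 20.9, 22.6 and 22.2 CPM, a log2 fold change of -0.73 ± 0.07 (adjusted p = 1.93e-09). Taldo1, the transaldolase, was at 82.8, 81.6 and 78.4 CPM against 67.9, 63.9 and 66.5 CPM (log2 fold change -0.29 ± 0.04, adjusted p = 1.8e-06). In both, every Sora-Treg library lay below every ctrl-Treg library. Tkt, the transketolase and the most abundant of the 7 pentose phosphate genes per length at 109 ± 1.65 FPKM in ctrl-Treg cells, was at 339, 345 and 334 CPM against 374, 362 and 364 CPM (log2 fold change 0.11 ± 0.03, adjusted p = 0.00139). With libraries scaled by totals its value was -0.01, so its direction rests on the scaling.

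Phosphoglucomutase links glucose 6-phosphate to glycogen. Pgm1 rose from 170, 166 and 163 CPM to 320, 313 and 317 CPM (log2 fold change 0.93 ± 0.03, adjusted p = 1.05e-17), with groups far apart. Pgm2 was at 18.2, 17.4 and 20 CPM against 19.8, 20.6 and 18.6 CPM and did not pass the test (log2 fold change 0.08 ± 0.08, adjusted p = 0.355).

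**Figure D5:**
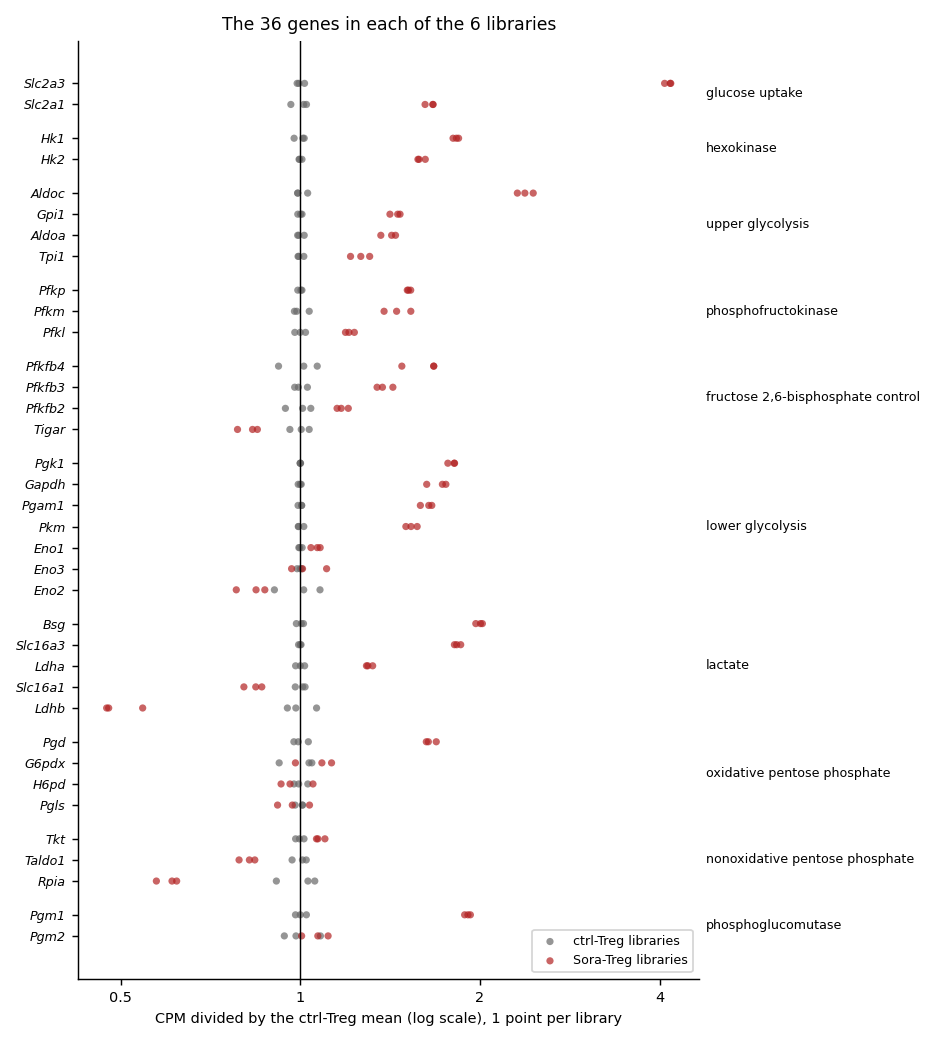
CPM of each of the 36 genes in each of the 6 libraries, divided by the ctrl-Treg mean of that gene (log axis; grey: ctrl-Treg, red: Sora-Treg, 1 point per library). The red points lie clear of the grey ones to the right in 25 genes and to the left in 6, and mix with them in Eno3, G6pdx, Pgls, H6pd and Pgm2.

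Genes of the same and neighbouring pathways outside the 36 were followed in lists of 59 symbols, of which 44 were tested: 18 were higher, 14 lower and 12 not called. Against 29.7% higher and 29.9% lower over all tested genes, these are shares of 40.9% and 31.8%. The lists were chosen with earlier results of these data known, so their shares here and below are descriptions. Of 18 further glycolysis genes 4 were higher (22.2%) and 6 lower (33.3%), near the background. Emb, which encodes embigin, a relative of basigin that also carries lactate transporters, rose from 81.9 ± 3.13 to 145 ± 6.13 CPM (log2 fold change 0.82, adjusted p = 2.96e-14). Pgp, a phosphatase that clears by-products of glycolytic enzymes, rose by 0.73 on the log2 scale (adjusted p = 6.59e-11), and the low Ldhd, the mitochondrial D-lactate dehydrogenase, rose from 1.12 ± 0.264 to 4.57 ± 0.0358 CPM. Galm, which interconverts the forms of the glucose ring, and Minpp1, a phosphatase, fell by 0.44 and 0.23 on the log2 scale.

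Of 6 further pentose phosphate genes 4 were lower (66.7%, against 29.9% of all genes) and the other 2 did not pass the test. Prps1 and Prps2, which turn ribose 5-phosphate into the precursor of nucleotides, fell by 0.56 (adjusted p = 3.19e-11) and 0.35 (adjusted p = 8.1e-07) on the log2 scale. Rpe, which interconverts pentose phosphates, fell by 0.41 (adjusted p = 2.82e-06). Dera fell by 0.18 (adjusted p = 0.0278), a call lost with DESeq2, and in edgeR without ctrl-Treg replicate 2 or 3 or Sora-Treg replicate 1 or 2. The kinase gene Rbks did not pass the test (adjusted p = 0.562).

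Glycogen and gluconeogenesis genes were higher in 9 of 14 (64.3%, against 29.7% of all genes) and lower in 3 (21.4%, against 29.9%). Gbe1, the glycogen branching enzyme, was at 84.2, 84.4 and 87.8 CPM against 246, 254 and 254 CPM (log2 fold change 1.56 ± 0.03, adjusted p = 8.98e-21). Pygl, the glycogen phosphorylase of liver, was at 27.8, 28.8 and 31.7 CPM against 134, 133 and 142 CPM (log2 fold change 2.21 ± 0.05, adjusted p = 1.25e-20). Pcx, the pyruvate carboxylase, was at 24.8, 27 and 26.1 CPM against 120, 119 and 123 CPM (log2 fold change 2.22 ± 0.04, adjusted p = 3e-21). Gys1, the glycogen synthase, rose from 119 ± 1.49 to 176 ± 3.29 CPM (adjusted p = 7.52e-13). Pck2, the mitochondrial enzyme that makes phosphoenolpyruvate, fell from 106 ± 2.15 to 61.5 ± 0.335 CPM (adjusted p = 3.08e-14).

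Of 6 transcriptional and other regulators of glucose breakdown, 5 were higher (83.3%, against 29.7% of all genes) and 1 lower. In 4 of the 5 the groups did not overlap, a separation upwards that 31.8% of all genes showed. This short list, too, was chosen with earlier results known, so its share is a description. Hif1a, the oxygen-regulated subunit of hypoxia-inducible factor, rose from 258, 263 and 269 CPM to 671, 722 and 675 CPM (log2 fold change 1.39 ± 0.03, adjusted p = 1.79e-20). Myc, which drives metabolic genes in activated T cells, rose less, from 319, 317 and 310 CPM to 404, 394 and 419 CPM (log2 fold change 0.36 ± 0.03, adjusted p = 1.87e-10). Txnip, which restrains glucose uptake, rose from 81.9 ± 0.912 to 123 ± 2.83 CPM (adjusted p = 2.4e-12). The low Epas1, which encodes a second hypoxia-inducible subunit, was at 0.967 ± 0.173 and 2.35 ± 0.358 CPM (adjusted p = 0.000259).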

How the data were processed

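RNA of 3 ctrl-Treg and 3 Sora-Treg libraries was analysed, grouped by sample titles. The authors deposited raw counts and FPKM per gene symbol. The study's methods name Bowtie2 and GRCm38, whereas the submitters' processing notes name fastp, HISAT2, HTSeq, R 3.2.0, DESeq2 and GRCm39, and strand, annotation release and the treatment of multiply mapped reads are not given in the sources used here. Each deposited FPKM equalled the count divided by 1 length per gene and the library total (largest relative difference 1.09e-06), so it is no separate measurement.

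Counts were tested with edgeR 4.0.16 in R 4.3.3 (quasi-likelihood, TMM, filterByExpr, no covariate, Benjamini-Hochberg over 13463 genes), at an adjusted p under 0.05, alone or with a log2 fold change beyond 1. SEs are those implied by the F statistic. The scripts were tested on simulated data. DESeq2 1.42.0, limma 3.58.1 on log2(FPKM + 1) or log2(FPKM + 0.1), other scalings and filters, and left-out libraries were alternatives, and levels divided by the longest coding transcript were added after seeing the data. Shares were compared with exact permutation tests (SciPy 1.17.1). Replicate pairs differed by more than sampling noise (chi-square per degree of freedom 3.36 to 5.91), and the biological coefficient of variation was 4.29%. Transcripts of GENCODE vM21 were compared with BLAST 2.17.0. The 36 genes and the other lists were chosen with earlier results of these data known. The text names all 36 and, of each other pathway list, at most 5 tested genes with the smallest adjusted p. Beyond these, Slc2a4, Slc2a6, Slc2a8 and Pfkfb1 are named beside their relatives among the 36.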

Additional observations from a re-analysis of the deposited data

How the results depend on the processing

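Of the 36 genes, 28 kept their direction and their side of the threshold under all 18 alternatives, and 8 did not (Pfkfb2, Eno1, Eno3, G6pdx, Pgls, H6pd, Tkt and Pgm2), mostly under scalings without TMM, where Pgls (-0.152) and H6pd (-0.141) were called lower with library totals. The median log2 fold change of the 36 genes was 0.45 with upper quartile scaling, 0.37 with library totals, 0.36, 0.37 and 0.36 in limma on log2(FPKM + 1), log2(FPKM + 0.1) and log2(FPKM + 1) without a filter, and 0.475 to 0.501 with a library left out. With library totals and those 3 limma settings, in that order, the log2 fold change turned to -0.0266, -0.0267, -0.0267 and -0.0267 for Eno1, to -0.0749, -0.0656, -0.0752 and -0.0656 for Eno3, to -0.0234, -0.0235, -0.0246 and -0.0235 for G6pdx, to -0.00561, -0.00538, -0.00542 and -0.00538 for Tkt, and to -0.0304, -0.0264, -0.0295 and -0.0264 for Pgm2. Limma called 2310, 2305 and 2577 genes higher, against 3994 in edgeR, but it tested other sets of genes. It kept genes with a mean FPKM of at least 1, or in the last setting any FPKM above 0. Neither library totals nor the limma settings set the typical gene at no change, and other causes were not tested. With 1 library left out, values ranged from -0.0115 to 0.0841 for Eno3 and from -0.0797 to 0.00678 for Pgls, from -0.0778 to 0.0141 for H6pd, from -0.0146 to 0.24 for Rbks and from -0.0787 to 0.571 percentage points for the Pfkfb3 share. The negative Eno3 value came without Sora-Treg replicate 1, and the other changes of sign without Sora-Treg replicate 2. The genes past the 2-fold limit downwards numbered 0 to 1, and the other pathway genes called lower 9 to 13, with 9 without ctrl-Treg replicate 1 against 14 in all. Leaving out ctrl-Treg replicates 1 and 2, whose summed myeloid markers were highest, gave 24 of the 36 genes higher and 6 lower, 0 past 2-fold downwards, 7 other pathway genes lower, -0.0261 for Pgm2 and -0.0285 for Rbks. With a replicate block, 25 of the 36 genes were higher and 6 lower, as without it; same-numbered libraries did not deviate together (correlations -0.0438, 0.0591 and 0.0299). All 15 paralog shares kept their direction when levels were divided by transcript length, an alternative chosen after seeing the data. With 3 libraries a group, permutation tests of shares cannot pass 0.05.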

Other observations

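Ratios between the lactate transport genes were chosen after their values were seen and are given with no test. The FPKM of Slc16a3 were 3.50, 3.67 and 3.56 times those of Slc16a1 in the ctrl-Treg libraries, against 8.27, 7.53 and 7.79 times with Sora. The FPKM of Bsg over the sum of both lactate transporters were 2.47 ± 0.0344 without Sora and 3.06 ± 0.0219 with it (SD, n = 3).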
